A study of Mus musculus with 5 samples.

Results

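Keratins are the intermediate filament proteins of epithelial cells. The keratin genes were taken as every symbol in the deposited tables that begins with Krt followed by a digit, which gave 52 of 24347 symbols, each with 1 transcript row. Of these, 27 lie on chromosome 11 and 25 on chromosome 15, and 20 reached an FPKM (fragments scaled by transcript length and by mapped fragments) of 1 or more in at least 2 libraries and were tested. A further 29 were listed at 0 in all 5 libraries. The last 3 stayed below the filter: Krt83, a hair keratin, had FPKM 0.913 and 0.229 in Krt6a+ against 0, 0 and 2.56 in WAP+ libraries, Krt75 reached 0.438 in WAP+ library 1, and Krt71 reached 0.0747 in Krt6a+ library 3. Just inside the filter, Krt4 had FPKM 0 and 3.43 in Krt6a+ against 2.73, 0 and 0 in WAP+ libraries.

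A type I keratin (acidic, encoded mainly in the chromosome 11 cluster) pairs with a type II keratin (neutral to basic, chromosome 15), and filaments form from such pairs. Krt8 with Krt18 is the pair of simple epithelia and of the luminal cells that line mammary ducts and alveoli, while Krt5 with Krt14 is the pair of basal, myoepithelial and stratified epithelium. Krt6a, Krt6b, Krt16 and Krt17 are induced in wounded, hyperproliferative and squamous epithelium and in hair follicles, and Krt6a has also been used to mark cells of the mammary ductal tree. Krt18 is a type I gene that lies in the chromosome 15 cluster beside Krt8, so the chromosome and the type disagree for it; it is counted here as type I, giving 28 type I and 24 type II genes, 10 of each tested.

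The libraries were made from mammary precancerous lesion tissue of MMTV-Wnt-1 transgenic mice, in which the long terminal repeat of mouse mammary tumour virus drives Wnt-1 in mammary epithelium, on a mixed FVB, SJL and C57BL/6 background shared by both groups. There were 2 libraries of cells labelled keratin 6a positive precancerous stem cells (Krt6a+, numbered 2 and 3) and 3 of cells labelled positive for whey acidic protein, a milk protein (WAP+, numbered 1 to 3). Each library was made from a pool of cells sorted with an antibody to TVA, the avian retrovirus receptor, which mouse cells lack unless it is introduced. The labels do not say what drove TVA in each group, how many mice were pooled, or their age, so p-values measure only the spread between these libraries, which may be technical, and a difference between mice or sorts cannot be told apart from one between populations.

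Read totals are not known from the sources used here. Genes at FPKM 1 or more numbered 8112 to 8900 per library. The gene for which the second population is named, Wap, read 50.1, 126 and 13.9 FPKM in WAP+ but 0 in both Krt6a+ libraries. An exact 0 can be a failed estimate in these tables, since Eno1, a glycolytic enzyme of most cells, was listed at 0 in all 5. Markers of other cells were low with exceptions. Of 6 leukocyte markers, 4 including Ptprc were listed at 0 throughout, and the list summed to FPKM 6.49 to 17.8 in Krt6a+ and 10.1 to 26.4 in WAP+ libraries. The fibroblast list summed to 57.5 and 210 against 17.1, 8.60 and 84.2, mostly Dcn, and the endothelial list to 0.0902 and 7.51 against 132, 0.244 and 0.173, the 132 mostly Cldn5 in WAP+ library 1. The smooth muscle list (Acta2, Tagln, Myh11, Cnn1) summed to 1.37 and 3.08 in Krt6a+ against 48.8, 48.6 and 29.1 in WAP+ libraries, so it moved with the groups. The adipocyte gene Fabp4 had 2188, 65.8 and 20.3 in WAP+ and 0 in Krt6a+ libraries, with Adipoq, Plin1 and Cidec at 0 in all 5. The part of these cells in the keratin results was not tested.

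Summed over all 52 genes, both Krt6a+ libraries had a higher keratin level than any WAP+ library, and different keratins made up the sum. The summed FPKM was 10127 and 11671 in Krt6a+ against 9850, 7360 and 8740 in WAP+ libraries. That was 2.62% and 2.80% of all FPKM in the former and 1.88%, 1.42% and 2.08% in the latter. After scaling of the libraries to each other, the sums were 10341 ± 6.81 (SD, n = 2) and 8916 ± 983 (SD, n = 3). Sums and ratios are given as a description with no test; an exact permutation test of 2 against 3 libraries cannot go below p = 0.1. The share of simple epithelial keratins (Krt7, Krt8, Krt18, Krt19, Krt20 and Krt23) in the keratin sum was 25.8% and 30.0% in Krt6a+ against 83.1%, 96.2% and 83.5% in WAP+ libraries. The activation keratins (Krt6a, Krt6b, Krt16, Krt17) held 39.3% and 43.9% against 5.73%, 1.68% and 4.27%, and the basal keratins (Krt5, Krt14, Krt15) 28.2% and 23.1% against 9.78%, 2.08% and 10.7%. None of these 3 shares overlapped between the populations. The shares are parts of the same keratin sum, so they are not independent of each other. As a pool of cells was sequenced, fewer cells with a transcript and less transcript per cell cannot be told apart.

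**Figure D1:**
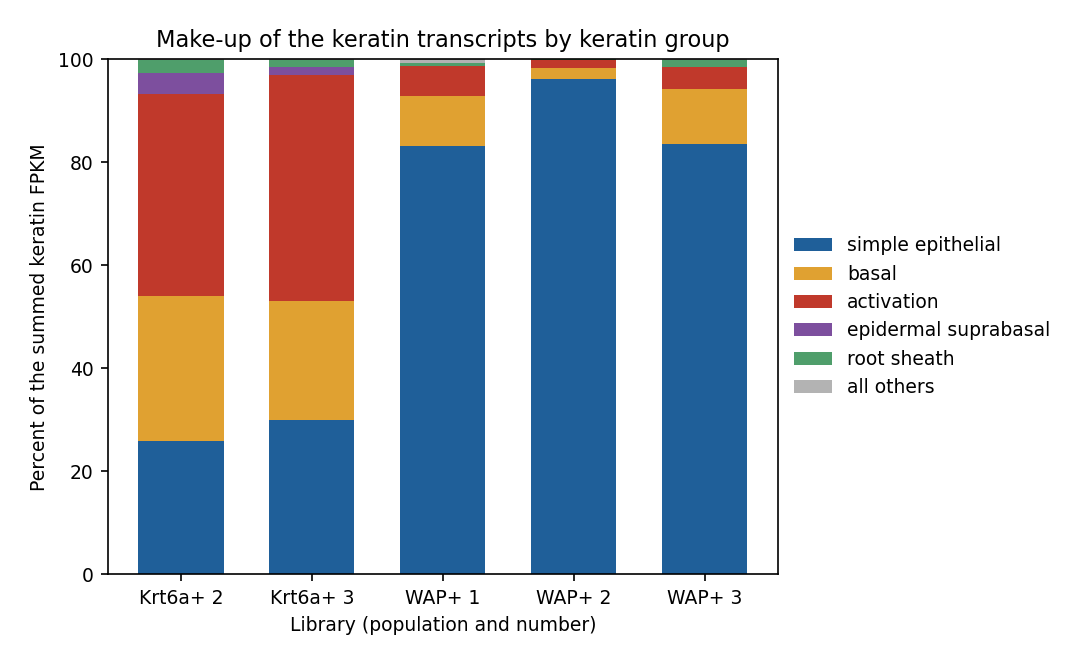
Share of each keratin group in the summed keratin FPKM (percent, vertical axis) in the 2 Krt6a+ and 3 WAP+ libraries, 1 bar per library, without error bars since each bar is a single library. Simple epithelial keratins fill 83.1% to 96.2% of the WAP+ bars, and activation with basal keratins fill most of the Krt6a+ bars.

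The most abundant keratins were not the same. Krt18 ranked first among keratins in each WAP+ library, followed by Krt19 and Krt8 in library 1 and by Krt8 and Krt19 in libraries 2 and 3, and Krt18 stood at rank 12, 17 and 12 among all 24347 symbols. In Krt6a+ library 2 the order was Krt14, Krt6b, Krt6a and Krt7, and in library 3 it was Krt6b, Krt14, Krt18 and Krt6a. The first keratin of each Krt6a+ library thus stood at rank 21 (Krt14) and rank 15 (Krt6b).

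Of the 20 tested keratins, 4 were higher in Krt6a+ libraries at an adjusted p under 0.05: Krt6b, Krt80, Krt5 and Krt6a, all type II genes. Krt6a names the Krt6a+ population, so its call and its part in the activation share are not independent of that label. Over all 9682 genes tested 0.258% were called higher, by the same limma fit with Benjamini-Hochberg adjustment. None of the 20 was called lower, where 0.434% of all genes were. At an unadjusted p under 0.05, limma gave 10 keratins higher (7.66% of all genes) and 3 lower (9.45% of all genes). The same 10 and 3 keratins had groups that did not overlap, against 17.4% of all genes in each direction. The median log2 difference, Krt6a+ minus WAP+, was 2.02 over the 20 tested keratins, 1.09 over the 10 of type I and 2.71 over the 10 of type II, beside -0.01 over all tested genes. These medians describe only genes that passed the expression filter, which Krt73 passed through the Krt6a+ libraries alone. Krt4, Krt10, Krt32, Krt42, Krt78 and Krt80 each reached FPKM 1 in a single WAP+ library, so they too needed the Krt6a+ libraries to pass. Of these, Krt80 is among the 4 calls.

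**Figure D2:**
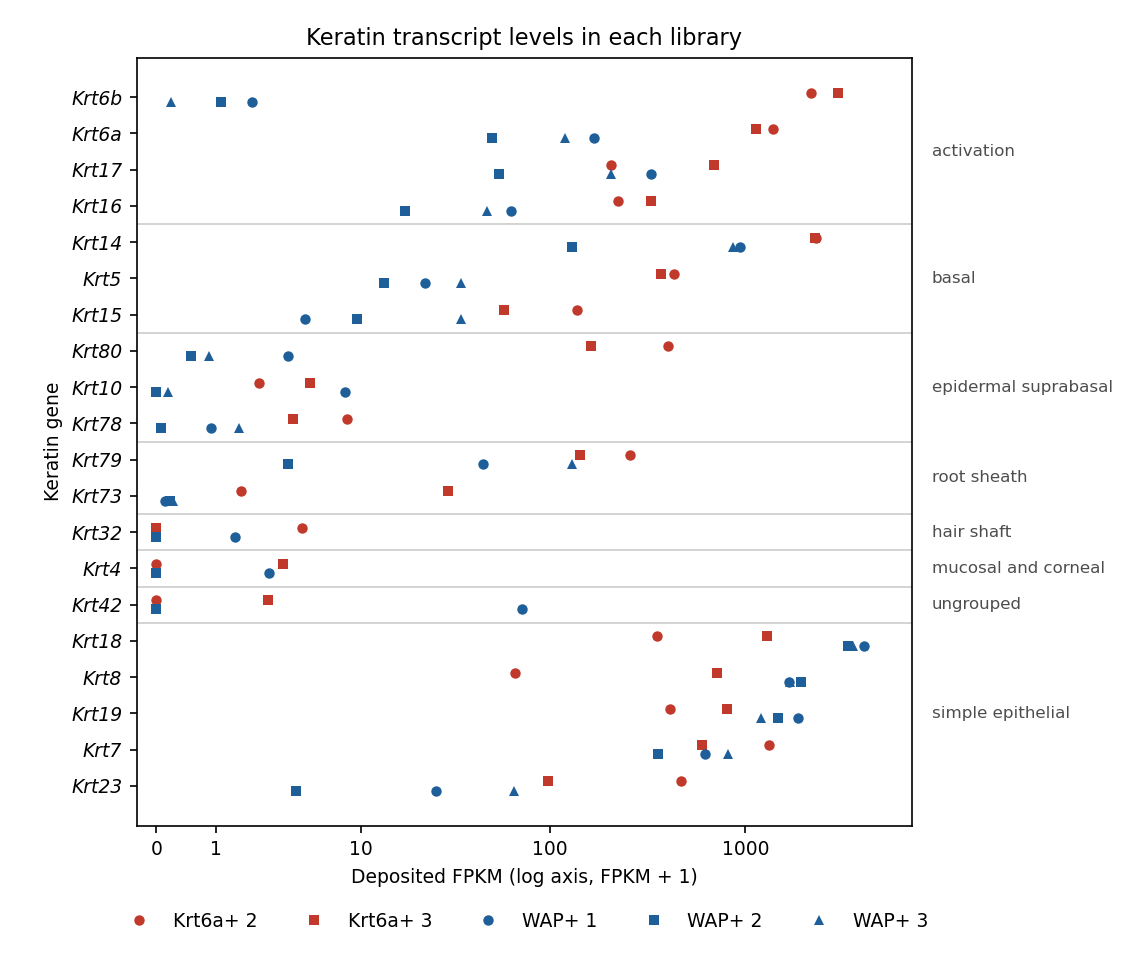
Deposited FPKM (log axis after adding 1) of the 20 tested keratins, 1 point per library, red for the 2 Krt6a+ and blue for the 3 WAP+ libraries, grouped by keratin group. Krt6b sits at 2171 and 2963 in red and from 0.192 to 2.07 in blue, while Krt8 and Krt18 lie to the right in blue.

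Krt6a and Krt6b, adjacent type II genes of activated epithelium, did not differ to the same degree. Their coding sequences are close: 1622 aligned bases are identical and 37 differ (97.8% identity) in GENCODE M21 on GRCm38, the build of the files. The stretch of 90 coding bases with the most differences is shown because reads from it can tell the paralogs apart. It lies in exon 4 of 9 of each gene, on the minus strand, at chr15:101692484-101692573 for Krt6a and chr15:101678303-101678392 for Krt6b, and capitals mark the 12 bases that differ.
Krt6a: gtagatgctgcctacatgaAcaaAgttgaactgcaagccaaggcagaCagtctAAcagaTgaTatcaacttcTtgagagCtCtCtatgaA
Krt6b: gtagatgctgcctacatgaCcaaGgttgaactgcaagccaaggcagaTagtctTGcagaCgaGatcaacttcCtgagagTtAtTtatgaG
Elsewhere the genes are harder to separate. Of all windows of 100 bases, the read length, 30.1% of those in the Krt6b transcript occur unchanged in Krt6a, and 56.1% match a keratin transcript of another gene with at most 2 differences. How the authors' software divided such reads is not stated, so the split between these genes is uncertain.

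Krt6b (NM_010669, chr15:101676023-101680289) had FPKM 2171 and 2963 in Krt6a+ against 2.07, 1.14 and 0.192 in WAP+ libraries. The lowest Krt6a+ value was 1048 times the highest WAP+ value, and the deposited 95% interval reached 0 in WAP+ library 3 (0 to 0.464). The scaled mean was 2421 ± 290 (SD, n = 2) in Krt6a+ against 1.10 ± 0.81 (SD, n = 3), so the fitted difference was 10.25 ± 0.49 SE in log2 units (limma, adjusted p = 0.000259). Of the 4 called keratins, Krt6b alone kept its call in all 14 alternative fits, with adjusted p from 4.92e-05 to 0.00515.

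Krt6a (NM_008476, chr15:101689928-101694305), the gene for which the first population is named, had FPKM 1380 and 1133 in Krt6a+ against 168, 50.0 and 120 in WAP+ libraries. It was therefore clearly detected in WAP+ libraries, at rank 436, 1022 and 468 among all symbols. The log2 difference was 3.50 ± 0.49 SE (limma, adjusted p = 0.0383). Within a library, the ratio of Krt6b to Krt6a was 1.57 and 2.62 in Krt6a+ against 0.0123, 0.0228 and 0.00160 in WAP+ libraries. Krt6b thus exceeded Krt6a in both Krt6a+ libraries, whereas Krt6a exceeded Krt6b by 81.1, 43.9 and 626 times in the WAP+ libraries. The 626 rests on a Krt6b FPKM of 0.192, whose interval reached 0. All these ratios depend on how shared reads were divided between the genes.

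The type I partners of the activation group differed less. Krt16 had FPKM 223 and 331 in Krt6a+ against 62.9, 17.5 and 47.5 in WAP+ libraries, without overlap. It did not pass over all genes (limma, log2 2.70 ± 0.53 SE, adjusted p = 0.0607), and it passed in 1 of 14 alternative fits, the one restricted to genes at FPKM 1 or more in at least 3 libraries (adjusted p = 0.0428, over a range of 0.0428 to 0.202). Krt17 had FPKM 207 and 692 against 331, 55.0 and 205, so the populations overlapped (limma, log2 1.16 ± 0.74 SE, adjusted p = 0.464). The sum of Krt16 and Krt17 over the sum of Krt6a and Krt6b was 0.121 and 0.250 in Krt6a+ against 2.32, 1.42 and 2.10 in WAP+ libraries. Krt16 and Krt17 share few read-length windows with other keratins, 12.2% and 3.79% with at most 2 differences, in each case mostly with Krt14.

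Among the basal keratins, Krt5 (NM_027011, chr15:101707070-101712891), the type II gene next to Krt6a, had FPKM 434 and 374 in Krt6a+ against 22.4, 13.4 and 34.7 in WAP+ libraries. Its lowest Krt6a+ value was 10.8 times its highest WAP+ value, and the log2 difference was 4.02 ± 0.49 SE (limma, adjusted p = 0.0275). Krt14 (NM_016958, chr11:100203162-100207510), its type I partner, had 2284 and 2263 against 936, 130 and 862. The Krt6a+ values of Krt14 were above all WAP+ values, but WAP+ library 2 stood far below the other WAP+ libraries, and the test was not passed (limma, log2 2.14 ± 0.77 SE, adjusted p = 0.209). Krt14 exceeded Krt5 in every library, by 5.26 and 6.06 times in Krt6a+ and 41.8, 9.71 and 24.9 times in WAP+ libraries. Krt15, a type I keratin of basal cells and hair follicle bulge, had 138 and 58.0 against 4.74, 9.51 and 34.6 (limma, log2 2.69 ± 0.87 SE, adjusted p = 0.172). WAP+ library 2 also held the lowest Krt6a, Krt16, Krt17, Krt23 and Krt79 of the 5 libraries. The contractile genes Acta2 and Tagln, which myoepithelial cells also express, were on the opposite side to the basal keratins: Acta2 had 0.658 and 0.398 against 23.7, 25.2 and 8.35, and Tagln had 0 and 2.65 against 24.0, 20.3 and 17.1. Neither passed (limma, adjusted p = 0.0547 and 0.0574).

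Simple epithelial keratins went in both directions. Krt18 (NM_010664, chr15:102028216-102032026) had FPKM 353 and 1283 in Krt6a+ against 4018, 3335 and 3534 in WAP+ libraries (limma, log2 -2.54 ± 0.50 SE, adjusted p = 0.0607). Krt8 (NM_031170, chr15:101996711-102004342), the neighbouring type II partner, had 66.2 and 719 against 1664, 1917 and 1681 (limma, log2 -3.11 ± 0.81 SE, adjusted p = 0.117). Krt19, a type I keratin of ductal epithelia that lies between basal Krt15 and Krt14 on chromosome 11, had 412 and 803 against 1860, 1463 and 1206 (limma, log2 -1.49 ± 0.36 SE, adjusted p = 0.102). In all 3 genes every WAP+ library was above both Krt6a+ libraries, yet none passed over all 9682 genes. Such a lack of overlap held for 15% of the tested keratins and 17.4% of all genes. Krt18 did pass with all 5 libraries where FPKM 1 or more was required in at least 3 of them (limma, adjusted p = 0.0439). The Krt6a+ libraries lay far apart: Krt8 was 10.9 times, Krt18 3.63 times and Krt19 1.95 times higher in library 3 than in library 2. Without Krt6a+ library 3, Krt8 (limma, log2 -4.71, adjusted p = 0.00322; range over 14 alternatives 0.00322 to 0.279) and Krt18 (log2 -3.36, adjusted p = 0.0116; range 0.0116 to 0.211) passed, with the remaining Krt6a+ library assumed to vary like the WAP+ group. Without Krt6a+ library 2 the differences were -1.50 for Krt8 and -1.71 for Krt18, and neither passed.

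Krt7 and Krt23 did not follow Krt8 and Krt18. Krt7, a type II keratin of glandular ducts, had FPKM 1314 and 603 in Krt6a+ against 620, 359 and 813 in WAP+ libraries, so the populations overlapped (limma, log2 0.53 ± 0.52 SE, adjusted p = 0.654), and the sign turned without Krt6a+ library 2 (log2 -0.12). Krt23, a type I keratin placed with the simple group, had 468 and 98.0 against 25.6, 4.13 and 65.5 (limma, log2 3.26 ± 1.10 SE, adjusted p = 0.188). Its highest value, in Krt6a+ library 2, was 4.78 times that of Krt6a+ library 3. Krt20, the intestinal and urothelial keratin of this group, was listed at 0 in all libraries.

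The ratio of the simple pair to the basal pair, Krt8 and Krt18 over Krt5 and Krt14, was 0.154 and 0.759 in Krt6a+ against 5.93, 36.5 and 5.81 in WAP+ libraries. Both pairs were present in all libraries, and the ratio was below 1 in both Krt6a+ and above 1 in all WAP+ libraries. Summed by type, type I over type II was 0.678 and 0.903 in Krt6a+ against 2.90, 2.14 and 2.14 in WAP+ libraries. Scaled type II sums were 5798 ± 511 (SD, n = 2) and 2662 ± 490 (SD, n = 3), and scaled type I sums 4542 ± 518 (SD, n = 2) and 6254 ± 667 (SD, n = 3). Krt18 alone gave 40.8%, 45.3% and 40.4% of the keratin sum in the WAP+ libraries, and it counts as type I although it lies on chromosome 15. The direction of the ratio rests on that assignment: split by chromosome, chromosome 11 over chromosome 15 keratins was 0.585 and 0.574 in Krt6a+ against 0.505, 0.296 and 0.383 in WAP+ libraries. By locus, the Krt6a+ libraries thus had the higher ratio. These are transcript levels per length, and protein was not measured.

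**Figure D3:**
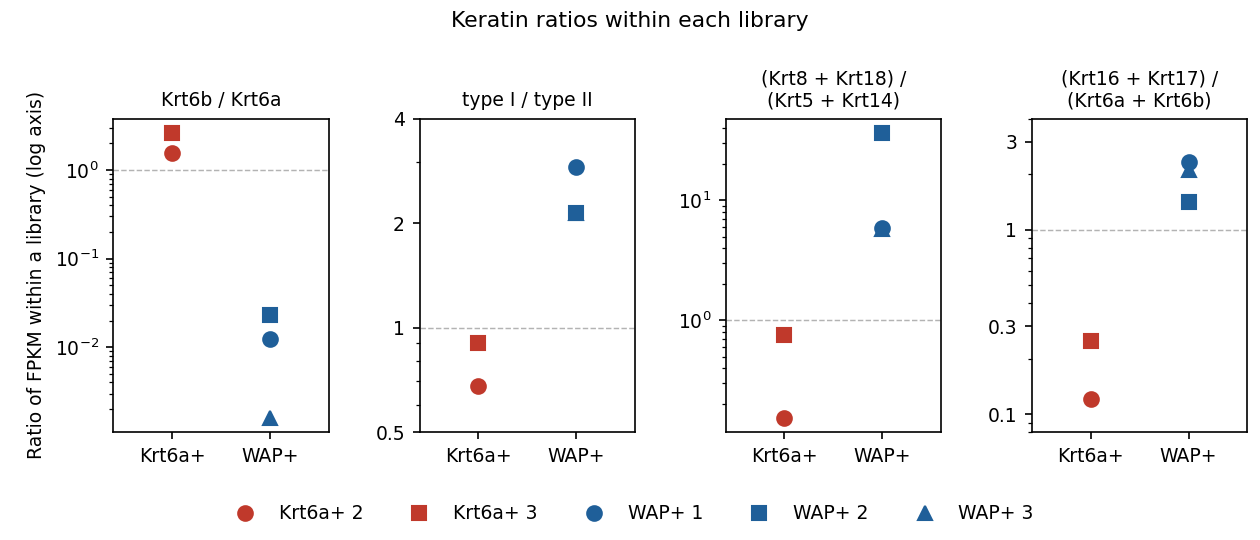
Ratios of FPKM between keratins within each library (log axis, a panel per ratio, 1 point per library, dashed line at a ratio of 1). The Krt6a+ and WAP+ points lie on opposite sides of 1 in all 4 panels, and Krt6b over Krt6a runs from 0.00160 to 2.62 (for type I over type II, with Krt18 as type I, WAP+ libraries 2 and 3 coincide at 2.14; split by chromosome, that order of the groups turns).

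Keratins of differentiated epidermis and of hair follicles were mostly listed at 0. The exception past the threshold was Krt80 (NM_028770, chr15:101349571-101370125), a type II epithelial keratin at the far end of the cluster. Krt80 had FPKM 402 and 162 in Krt6a+ against 3.70, 0.494 and 0.846 in WAP+ libraries, without overlap (limma, log2 6.70 ± 0.68 SE, adjusted p = 0.0122). Its transcript had no window of read length that matched another keratin with at most 2 differences. Of the 7 genes listed as suprabasal, Krt1, Krt2, Krt9 and Krt77 were listed at 0 in all libraries. Krt10, the type I partner of Krt1 in differentiating epidermis, had 2.35 and 5.08 against 8.09, 0 and 0.149 (limma, log2 1.03 ± 0.99 SE, adjusted p = 0.649), and Krt78 had 8.31 and 3.99 against 0.890, 0.0568 and 1.63 (limma, log2 1.90 ± 0.73 SE, adjusted p = 0.237).

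Of 10 follicle root sheath and duct keratins in the files, 6 were listed at 0 in all libraries. Krt79, a type II keratin of the follicle opening and sebaceous duct, had FPKM 257 and 143 in Krt6a+ against 45.2, 3.68 and 130 in WAP+ libraries (limma, log2 2.55 ± 1.21 SE, adjusted p = 0.333). The deposited values of Krt79 did not overlap but the scaled ones did. Krt73, a type II keratin of the inner root sheath, had 1.69 and 29.6 against 0.106, 0.173 and 0.209, so 1 library carried most of it (limma, log2 2.88 ± 0.97 SE, adjusted p = 0.187). Of 15 hair shaft keratins, 13 were listed at 0 in all libraries. The hair shaft gene Krt32 had 4.53 and 0 against 1.52, 0 and 0, and the follicle markers Krt25, Krt27, Krt31, Krt33a and Krt86 were at 0 in all 5. Krt42, a type I gene beside Krt17, had 0 and 2.72 in Krt6a+ against 72.3, 0 and 0 in WAP+ libraries (limma, log2 -1.12 ± 1.76 SE, adjusted p = 0.804). The sole high value of Krt42 was in WAP+ library 1, the library with the highest endothelial sum and the highest Fabp4; what part those cells had in it was not tested.

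Along the chromosome 15 cluster, Krt6b, Krt6a and Krt5 are consecutive genes and all 3 were called higher in Krt6a+ libraries. They lie in the middle of the cluster. Krt8 and Krt18, at one end of it, are consecutive and had negative differences. Krt80 lies beside Krt7, which did not pass. On chromosome 11, Krt15 and Krt19 are neighbours with differences of opposite sign (2.69 and -1.49), and Krt14, Krt16 and Krt17 had positive differences of 2.14, 2.70 and 1.16. No chromosome 11 keratin passed the threshold. The signs of the 20 differences were the same with no scaling and with quantile normalization.

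**Figure D4:**
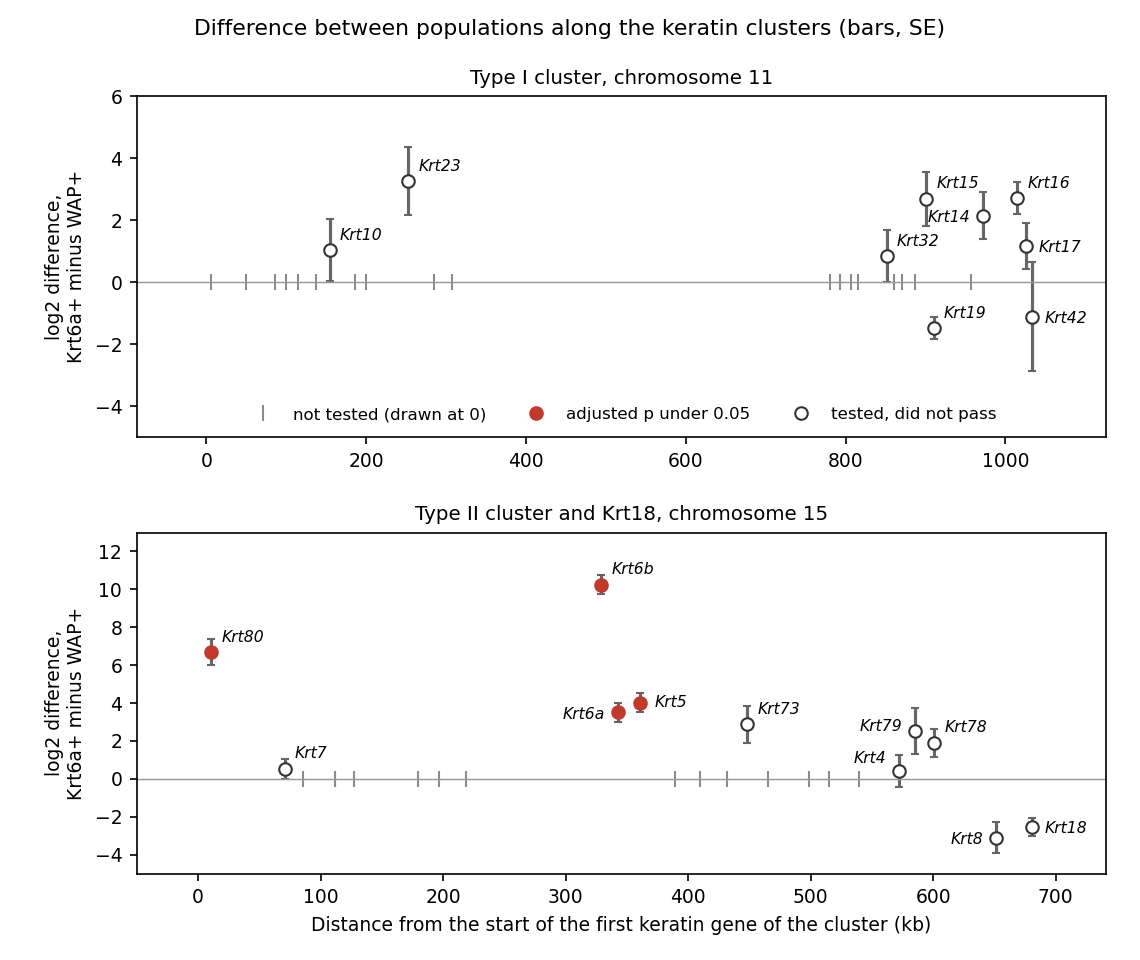
log2 difference in expression, Krt6a+ minus WAP+ (points, bars are moderated SE), of each tested keratin against its distance in kb from the first keratin gene of its cluster; filled red points passed the adjusted threshold and ticks at 0 are untested genes. The 4 red points, Krt80, Krt6b, Krt6a and Krt5, are all on chromosome 15, and Krt8 and Krt18 lie below 0 at its end.

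The spread between the Krt6a+ libraries differed from gene to gene. Krt14, Krt5, Krt6a and Krt6b differed by at most 1.36-fold between libraries 2 and 3. Krt23, Krt80, Krt15, Krt7 and Krt78 were 2.08 to 4.78 times higher in library 2, and Krt73, Krt8, Krt18, Krt17 and Krt10 were 2.17 to 17.6 times higher in library 3. Some differences that did not pass moved with 1 library, on the log2 scale. Without WAP+ library 2, Krt14 was 1.23, Krt17 0.43, Krt79 1.20 and Krt10 0.48; without Krt6a+ library 2, Krt23 was 2.04 and Krt17 1.93; and without Krt6a+ library 3, Krt17 was 0.40. With each WAP+ library left out in turn, the calls of Krt5, Krt6a and Krt80 were lost. Their adjusted p ran from 0.0557 to 0.150, 0.133 to 0.165 and 0.0552 to 0.121 (limma). Their log2 differences in these fits were 3.70 to 4.39, 3.02 to 3.74 and 6.38 to 7.09. Over all genes, these fits called 2 higher and 3 to 4 lower, against 25 and 42 with all libraries. Without Krt6a+ library 2, Krt6a was also lost (adjusted p = 0.0573). Over all 14 alternatives the adjusted p ran from 0.0150 to 0.150 for Krt5, 0.0206 to 0.165 for Krt6a and 0.00492 to 0.121 for Krt80.

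Genes that work with keratins were described from lists of linkers, regulators and other intermediate filaments. Of 18 linker genes in the files, which tie keratin filaments to desmosomes and other junctions or bind keratins, 16 were tested and 0 passed in either direction (limma). At an unadjusted p under 0.05, 9 were higher and 0 lower, beside 7.66% and 9.45% of all genes, and the median log2 difference was 1.29 against -0.01 over all genes. Trim29, a tripartite motif protein, had FPKM 84.9 and 49.8 in Krt6a+ against 7.01, 2.42 and 9.75 in WAP+ libraries (limma, log2 3.20 ± 0.64 SE, adjusted p = 0.0661). Pof1b had 30.1 and 13.6 against 2.06, 0.189 and 0.474 (limma, log2 3.55 ± 0.73 SE, adjusted p = 0.0706). Jup, the desmosomal plakoglobin, had 81.0 and 132 against 29.8, 26.8 and 37.7, and Pkp1, a plakophilin of stratified epithelium, 56.1 and 44.2 against 19.5, 5.85 and 12.1 (limma, adjusted p = 0.119 and 0.129). These 4 genes, named for having the smallest p of the list, did not overlap between populations, and neither did 17.4% of all genes in that direction. Sfn, the 14-3-3 protein that binds phosphorylated keratins and the linker of highest mean level, had 390 and 724 against 670, 550 and 700 and did overlap.

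Of 28 tested transcription factors known to act on epithelial or keratin genes, 0 passed (limma), with 7 higher and 3 lower at an unadjusted p under 0.05 (7.66% and 9.45% of all genes) and a median log2 difference of 0.30. Grhl3, a factor of epidermal differentiation, had FPKM 37.8 and 119 in Krt6a+ against 8.03, 2.13 and 1.73 in WAP+ libraries (limma, log2 3.91 ± 0.68 SE, adjusted p = 0.0520). Its relative Grhl1 had 40.5 and 32.2 against 13.1, 5.97 and 7.70, and Elf3, an epithelial ETS factor, 187 and 111 against 55.6, 20.5 and 45.9 (limma, adjusted p = 0.121 and 0.137). Tfap2c, an AP-2 factor of luminal mammary cells, had 4.22 and 0.876 against 17.8, 13.5 and 12.6 (limma, adjusted p = 0.126). Cebpb, the factor of highest mean level, had 1340 and 2379 against 1639, 1081 and 2029.

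Other intermediate filaments were few. Of 17 listed, 6 were tested and 0 passed (limma), with 1 higher and 1 lower at an unadjusted p under 0.05 (7.66% and 9.45% of all genes) and a median of -0.03. Lmna, which encodes the nuclear lamins A and C, had FPKM 307 and 699 in Krt6a+ against 667, 591 and 621 in WAP+ libraries, within the range of the keratins. Vim, the intermediate filament of mesenchymal cells, had 24.7 and 17.7 against 54.7, 2.03 and 16.9. Nes, the filament gene nestin, had 0.109 and 0.129 against 1.88, 5.96 and 5.82 (limma, log2 -2.27 ± 0.73 SE, adjusted p = 0.172). Iffo2 had 11.4 and 23.4 against 5.37, 0.792 and 6.57, and Lmnb2 had 4.01 and 4.81 against 1.08, 3.32 and 0 (limma, adjusted p = 0.272 and 0.445).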

How the data were processed

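RNA-seq was made from 2 Krt6a+ and 3 WAP+ pools of sorted cells with SMART-Seq v4 cDNA amplification and Nextera libraries, per the labels' protocols; neither marks strand. Per the submitters' processing notes, the authors used TopHat and Cufflinks with build mm10; versions and filters are not stated. The deposited tables hold 34535 RefSeq transcripts with an FPKM and its 95% bounds, normalized by the authors for length and mapped fragments. Read depth is unknown, and low-input amplification adds scatter at low levels.

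FPKM was summed by symbol and divided by median-ratio factors over 5334 genes that reached FPKM 1 in each library. Genes at FPKM 1 or more in at least 2 libraries (9682) were compared on log2(scaled FPKM + 1) with limma 3.58.1 in R 4.3.3 (two-sided, mean-variance trend; residual degrees of freedom 3, prior 4.87). Benjamini-Hochberg adjustment ran over all genes with a threshold of 0.05; such folds understate changes of low genes. The procedure was tested on simulated data in which only well-expressed genes changed, and by large folds. Recovery of smaller changes or of changes in low genes was not covered. Alternatives covered pseudocount, filter, scaling, trend, row choice, a replicate block and each library left out. Windows of 100 bases were compared between GENCODE M21 transcripts of 51 keratins. Per-library values were named for keratins past the threshold, lineage keratins fixed by name and the highest of each group. From each related list, up to 4 members with the smallest p plus the highest were named. Krt4, Krt32, Krt42, Krt73, Krt75, Krt78, Krt79, Krt83, Krt71 and Vim were added after their values were seen. Of these, Krt4, Krt32 and Krt79 are also the highest of their groups. Krt10 and Krt23 are named too, although these rules do not cover them. The keratins and lists were chosen with earlier results of these data known.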

Additional observations from a re-analysis of the deposited data

How the results depend on the processing

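With all libraries 4 keratins were called higher and 0 lower. With no expression filter 1 was called higher, and with no mean-variance trend 2; leaving out each library in turn gave 1 to 4 higher and 0 to 2 lower, the lowest count of 1 (Krt6b) without any of the WAP+ libraries, and the 2 lower (Krt18, Krt8) without Krt6a+ library 3. Requiring FPKM 1 or more in at least 3 libraries gave 1 lower (Krt18) and 5 higher. Over all genes, 25 were called higher and 42 lower. The counts higher and lower were 6 and 20 with pseudocount 0.1, 41 higher with pseudocount 5, 2 and 3 with no filter, 66 and 93 with the filter of at least 3 libraries, 39 higher with quantile normalization, 27 lower with no scaling, and 7 and 9 with no trend. Of the calls over all genes, 37.3% were higher, 56.9% with pseudocount 5, 23.1% with pseudocount 0.1 and 50% with quantile normalization. Each library left out in turn gave 2 to 44 higher and 3 to 103 lower, with 2 higher without any of the WAP+ libraries and both highest counts without Krt6a+ library 3; without Krt6a+ library 2 they were 10 and 56. The cause of these changes was not tested.

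Replicate numbers 2 and 3 occur in both populations, but the labels do not say that they pair the libraries, and deviations of same-numbered libraries correlated at 0.0495 (number 2) and 0.00027 (number 3) across genes. Deviations of the 2 Krt6a+ libraries from their mean mirror each other. The 2 correlations are thus not independent and do not decide whether the libraries were paired. With the replicate number as a block, 15 genes were higher and 19 lower, Krt6a, Krt6b and Krt80 stayed called, Krt5 had an adjusted p of 0.0614 (limma), and the difference of Krt42 turned from -1.12 to 0.88. Leaving out 1 library turned Krt7 over a range of -0.12 to 1.20. The log2 difference between populations in the ratio of Krt18 to Krt8 ran from -0.21 to 1.37, and that of Krt19 to Krt18 from 0.61 to 1.50. With genes split by chromosome, the log2 difference of type I over type II (-1.60) turned to 0.59, because Krt18 moves to the other sum. Grouping by the cluster of the locus had been set in advance, so counting Krt18 as type I departs from it. The values of the split were calculated after the data were seen. Krt4, Krt32, Krt42 and Krt73 gave no value where the filter dropped them. Unknown depth limits what the low values can show.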

Other observations

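Symbols that begin with Krt but are no keratins gave no call (limma). Krtdap, the keratinocyte differentiation-associated protein, had FPKM 214 and 42.4 in Krt6a+ against 26.8, 0 and 0 in WAP+ libraries, without overlap (limma, log2 4.99 ± 1.44 SE, adjusted p = 0.139). Of 53 keratin-associated protein symbols, which encode matrix proteins of hair, 3 were above 0 in a library and 1 was tested: Krtap17-1 had FPKM 0.580 and 0 in Krt6a+ against 9.38, 1.95 and 0 in WAP+ libraries (limma, log2 -1.28 ± 0.94 SE, adjusted p = 0.526). Krtcap2, a subunit of the oligosaccharyltransferase complex despite its name, had 313 and 329 against 540, 643 and 539, without overlap (limma, log2 -0.95 ± 0.34 SE, adjusted p = 0.207). Krtcap3 had 38.4 and 26.8 against 44.9, 88.3 and 64.4, also without overlap (limma, adjusted p = 0.322). Over all tested genes, 17.4% had groups without overlap in each direction.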
